A study of Rattus norvegicus with 6 samples.

Results

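The mesenchymal transition factors and markers examined here were 10 genes taken by symbol from the deposited expression table of the rat pulmonary vein (PV), which holds 17833 genes. They comprise 7 transcription factors (Snai1, Snai2, Twist1, Twist2, Zeb1, Zeb2 and Prrx1) and 3 markers (Fap, Cdh2 and Vim). All 10 had a row in the table, and all 10 were among the 15150 genes that passed a filter on low expression, a mean of 0.1 FPKM (fragments per kilobase of gene length, scaled to the library total). Bulk RNA-seq compared 3 rats whose PVs had been banded on both sides (bilateral pulmonary vein banding, BPVB) with 3 sham rats, and the comparison asked how the RNA of the stenosed vein differs from that of the unbanded vein. All 6 animals were wild type Sprague-Dawley pups nursed by their mothers and operated on at postnatal day 1 under hypothermia on ice. The chest was opened in both groups, and only BPVB rats kept a constricting band. PV tissue of the right upper lobe was taken at postnatal day 21, when the animals were 21 days old, and the sex of the animals was not given. The tissue is a whole vein with its muscle, endothelium and adjoining cells, so that fewer cells of a type and less RNA per cell cannot be told apart in any value below. Library totals were 26686151, 26078189 and 29725808 fragments in BPVB and 23774306, 23439506 and 23821184 in sham PVs.

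Snail, Twist and Zeb factors bind DNA and repress epithelial or endothelial junction genes such as the E-cadherin gene, and in development and wound repair they accompany the change of sheet-forming cells into migratory mesenchymal cells. Snail and Zeb proteins are zinc-finger factors that bind the E-box CAGGTG, Twist proteins are basic helix-loop-helix factors that bind E-boxes as dimers, and Prrx1 is a homeobox factor of limb and vessel mesenchyme. When endothelium takes this path the process is called endothelial-to-mesenchymal transition. Vimentin (Vim) is the intermediate filament of mesenchymal cells, but endothelium, muscle precursors and leukocytes also hold it. N-cadherin (Cdh2) is an adhesion molecule of fibroblasts, smooth muscle and cardiomyocytes, and fibroblast activation protein (Fap) is a surface protease of activated fibroblasts. Bulk RNA-seq does not show which cell types of this tissue carry the 10 genes. The paper's single-cell data described high FAP expression in the myofibroblasts of the stenosed vein.

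Because Snail and Zeb proteins bind the E-box and are known to act on promoters of their own families, the promoters of the 10 genes were searched for it. RefSeq promoter windows on the GRCr8 assembly, from 250 bases before to 50 bases after the start of the gene, were available for 8 of the 10 genes, with no entry for Snai2 or Cdh2. The letters CAGGTG, or CACCTG on the other strand, were found in 2 of the 8 windows, those of Snai1 and Zeb1, beside 18.7% of all 27457 rat promoter windows and 17.9% of the 12200 windows of tested genes. The Snai1 match lay 142 bases before the start, and the Zeb1 window held matches 95 bases before and 37 bases after it. The stretch around the upstream match of each is shown because these genes moved in opposite directions in BPVB, with the window of Zeb2 at the same distance as that of Zeb1 for comparison. Capitals mark the E-box, each line reads 5′ to 3′ on the strand of the gene, and the Zeb2 stretch holds no E-box.
Snai1 (chr3:176667284-176667389, plus strand): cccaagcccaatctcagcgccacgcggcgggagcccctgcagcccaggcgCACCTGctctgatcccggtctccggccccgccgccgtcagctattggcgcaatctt
Zeb1 (chr17:56810693-56810798, minus strand): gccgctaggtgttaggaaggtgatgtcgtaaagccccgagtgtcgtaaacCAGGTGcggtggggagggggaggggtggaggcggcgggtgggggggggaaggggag
Zeb2 (chr3:49754363-49754468, minus strand): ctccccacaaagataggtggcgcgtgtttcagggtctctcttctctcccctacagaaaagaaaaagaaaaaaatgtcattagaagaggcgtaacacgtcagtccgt
A match is a description of the sequence, and binding was not measured in these animals.

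In BPVB PVs Snai1, Prrx1, Cdh2, Vim, Zeb2 and Fap were higher than in sham PVs, Zeb1 was lower, and Snai2, Twist1 and Twist2 did not pass the test. Expression was tested with limma on log2(FPKM + 0.5), two-sided, with Benjamini-Hochberg adjustment over all 15150 tested genes, and a gene was called at an adjusted p under 0.05. By this rule 7 of the 10 genes were called, 6 higher and 1 lower, beside 31.5% of all tested genes called (17.2% higher and 14.3% lower). The median log2 fold change was 0.29 over the 10 genes and 0.02 over all tested genes. None of the 10 passed the study's further threshold of an absolute log2 fold change above 1, which together with the adjusted p was passed by 3.27% of all genes. The study set this threshold on DESeq2 results and not on a limma fit to log2(FPKM + 0.5), so its count of genes is not directly comparable. The 3 BPVB libraries did not overlap with the 3 sham libraries for 7 of the 10 genes, beside 45.6% of all tested genes. The called changes of the members were thus small in size, between 1.17-fold and 1.7-fold for the rises, and 0.882-fold for Zeb1.

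**Figure D1:**
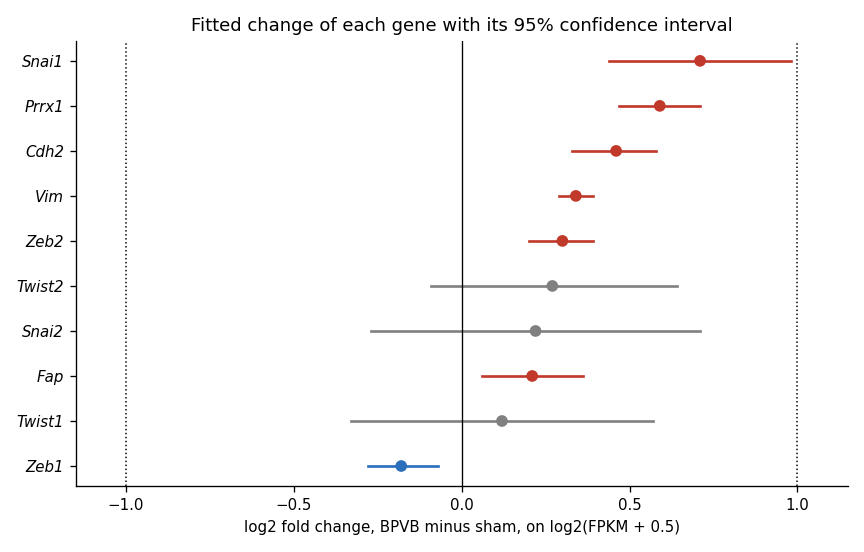
Fitted log2 fold change of each gene, BPVB minus sham, on the log2(FPKM + 0.5) scale (x axis), with its 95% confidence interval from limma (horizontal line); red marks genes called higher, blue called lower and grey not called, and the dotted lines lie at -1 and 1. Snai1 had the largest rise, 0.71, Zeb1 was the gene called lower at -0.18, the intervals of Snai2, Twist1 and Twist2 include 0, and no fitted value reached 1.

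Snai1 (NCBI Gene 116490), the Snail factor that represses E-cadherin, was 9.19, 10.5 and 13.0 FPKM in the BPVB libraries and 6.89, 6.16 and 6.14 FPKM in the sham libraries. All BPVB libraries were above all sham libraries, and BPVB replicate 3 was the highest. The means were 10.9 ± 1.9 and 6.4 ± 0.43 FPKM (SD, n = 3), a log2 fold change of 0.71 (SE 0.12, 95% confidence interval 0.44 to 0.98, adjusted p = 0.0019). These values rest on 231 to 619 fragments per library. Without BPVB replicate 3, the fitted change was still above 0, and over the fits that left out 1 library it ranged from 0.58 to 0.82, with adjusted p of at most 0.009.

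Snai2 (NCBI Gene 25554), which encodes Slug, the relative of Snai1 prominent in neural crest and in endothelial sprouting, was 3.44, 2.47 and 4.5 FPKM in the BPVB libraries and 2.08, 3.01 and 3.59 FPKM in the sham libraries. The groups overlapped, with the lowest BPVB library below the middle sham library. The fitted log2 fold change was 0.22 (SE 0.22, 95% confidence interval -0.27 to 0.71, adjusted p = 0.49), an interval that holds no change as well as a rise of the size fitted for Snai1. Only 40 to 108 fragments per library lay behind these values. For BPVB replicate 2 the 95% Poisson interval was 1.85 to 3.24 FPKM and for BPVB replicate 3 it was 3.69 to 5.44 FPKM, so that libraries of the same group differed by more than counting error.

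Twist1 (NCBI Gene 85489), a helix-loop-helix factor of cranial and cardiac-valve mesenchyme, was 2.83, 2.59 and 4.31 FPKM in the BPVB libraries and 2.56, 3.79 and 2.44 FPKM in the sham libraries. One library of each group stood above its other two, and the groups overlapped. The fitted log2 fold change was 0.12 (SE 0.2, 95% confidence interval -0.33 to 0.57, adjusted p = 0.69), and it was -0.08 (adjusted p = 0.8) without BPVB replicate 3. Twist2 (NCBI Gene 59327), the factor known from dermal mesenchyme, was 8.68, 6.71 and 5.94 FPKM in the BPVB libraries and 5.51, 4.8 and 7.06 FPKM in the sham libraries. Its groups overlapped as well, since sham replicate 3 was above 2 of the 3 BPVB libraries. The fitted log2 fold change of Twist2 was 0.27 (SE 0.16, 95% confidence interval -0.09 to 0.64, adjusted p = 0.23). Twist1 rested on 87 to 192 fragments per library and Twist2 on 133 to 274.

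Zeb1 (NCBI Gene 25705) and Zeb2 (NCBI Gene 311071), zinc-finger homeobox repressors of related sequence, changed in opposite directions by small amounts. Zeb1 was 18.6, 18.2 and 18.0 FPKM in the BPVB libraries and 20.8, 20.5 and 20.8 FPKM in the sham libraries. Its groups did not overlap, and its SD was 0.32 and 0.15 FPKM around means of 18.3 and 20.7 FPKM. The log2 fold change of Zeb1 was -0.18 (SE 0.045, adjusted p = 0.017). The Zeb1 call was narrow, since the adjusted p was 0.0513 without BPVB replicate 3 and 0.0504 without sham replicate 1, at log2 fold changes that stayed between -0.21 and -0.15 in all 16 alternatives.

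Zeb2 was 31.6, 33.3 and 32.0 FPKM in the BPVB libraries and 25.9, 26.9 and 25.8 FPKM in the sham libraries, again without overlap. The means were 32.3 ± 0.87 and 26.2 ± 0.59 FPKM (SD, n = 3), a log2 fold change of 0.30 (SE 0.043, 95% confidence interval 0.20 to 0.39, adjusted p = 8.2e-04). The fragments behind each library's value numbered 4338 to 4902 for Zeb1 and 2333 to 3610 for Zeb2. Zeb2 is also expressed by macrophages, whose marker genes rose in the same libraries as described below. The part of macrophages or of other cells in the change of Zeb2 was not tested.

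Prrx1 (NCBI Gene 266813), the homeobox factor of mesenchymal and fibroblast lineages, was 39.0, 34.8 and 35.5 FPKM in the BPVB libraries and 24.7, 23.2 and 24.0 FPKM in the sham libraries. The lowest BPVB library was more than 10 FPKM above the highest sham library. The means were 36.4 ± 2.3 and 24.0 ± 0.75 FPKM (SD, n = 3), and the log2 fold change was 0.59 (SE 0.054, 95% confidence interval 0.47 to 0.71, adjusted p = 5.6e-05). Prrx1 had the second largest fitted rise of the 10 genes after Snai1, with a smaller standard error and 2316 to 4486 fragments per library. The fitted value ranged from 0.54 to 0.63 over the 16 alternatives. Its relative Prrx2 was called higher at a smaller change of 0.31 (adjusted p = 0.02), with groups at 16.9, 20.1 and 20.7 FPKM in BPVB and 16.4, 14.6 and 15.2 FPKM in sham PVs, and lost the call without BPVB replicate 2 or 3 or sham replicate 2 or 3 (adjusted p up to 0.072).

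All 3 markers were called higher, each by less than 1.5-fold. Vim (NCBI Gene 81818) was 648, 652 and 640 FPKM in the BPVB libraries and 513, 506 and 516 FPKM in the sham libraries. It was the most abundant of the 10 genes and varied little within a group, with a coefficient of variation of 0.95% in each. The log2 fold change of Vim was 0.34 (SE 0.021, 95% confidence interval 0.29 to 0.39, adjusted p = 5.3e-06).

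Cdh2 (NCBI Gene 83501) was 37.0, 36.4 and 35.3 FPKM in the BPVB libraries and 25.6, 28.4 and 24.9 FPKM in the sham libraries. Every BPVB library was above every sham library, and the log2 fold change was 0.46 (SE 0.055, 95% confidence interval 0.33 to 0.58, adjusted p = 3.0e-04). Fap (NCBI Gene 192203) was 12.9, 11.9 and 11.6 FPKM in the BPVB libraries and 10.8, 10.3 and 10.1 FPKM in the sham libraries. Here the groups lay close together without overlap, and the log2 fold change was 0.21 (SE 0.065, 95% confidence interval 0.06 to 0.36, adjusted p = 0.035). The Fap call was lost in 7 of the 16 alternatives, including every left-out library but BPVB replicate 3 (adjusted p from 0.0509 to 0.11), while its fitted value stayed between 0.17 and 0.25.

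**Figure D2:**
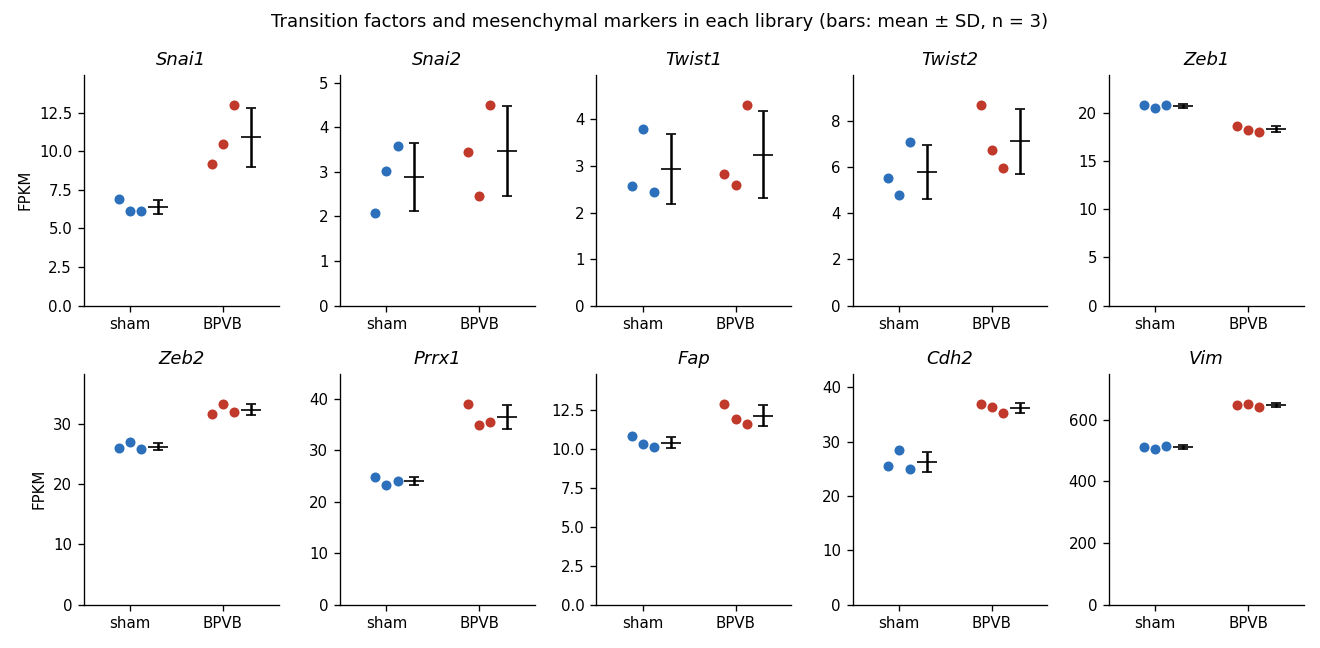
FPKM (y axis, from 0, scaled for each gene) of the 10 genes in each of the 3 sham libraries (blue points) and 3 BPVB libraries (red points), with the mean and SD of each group (black bars, n = 3). The points of the groups are separate for Snai1, Zeb1, Zeb2, Prrx1, Fap, Cdh2 and Vim and intermixed for Snai2, Twist1 and Twist2, and only Zeb1 lies lower in BPVB.

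The levels spanned a wide range among the 10 genes. In BPVB PVs the order of FPKM, which is scaled by gene length, was Vim, then Prrx1 and Cdh2, whose libraries overlapped, then Zeb2, Zeb1, Fap and Snai1, the last pair overlapping, then Twist2, and then Snai2 and Twist1, which overlapped too. In sham PVs Prrx1 (24.0 FPKM) stood below Cdh2 and Zeb2, which overlapped with each other, whereas in BPVB PVs Prrx1 (36.4 FPKM) was above Zeb2 in every library. Snai1 overlapped with Twist2 in sham PVs and was above it in every BPVB library. The remaining order was shared by both groups, except that Twist1 and Snai2 changed places within their overlap. Coefficients of variation within a group were 26% to 29% for Snai2 and Twist1, the genes of lowest level, 20% for Twist2, and at most 7.0% for Vim, Prrx1, Cdh2, Zeb2, Zeb1 and Fap. For Snai1 they were 18% in BPVB and 6.7% in sham, and for Cdh2 2.5% and 7.0%. BPVB replicate 3 was the highest of its group for Snai1, Snai2 and Twist1 and the lowest for Twist2, Zeb1, Fap, Cdh2 and Vim.

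Ratios between related genes within a library do not depend on the scaling of that library, and 7 were compared, of which 3 set the relatives among the factors against each other. The ratio of Zeb2 to Zeb1 was 1.7, 1.83 and 1.78 in BPVB libraries and 1.24, 1.31 and 1.24 in sham libraries. These values did not overlap, at a mean log2 difference of 0.48. The exact permutation p, two-sided, was 0.1, the smallest that 3 against 3 libraries allow, and 0.14 after adjustment over the 7 ratios. The ratio of Snai2 to Snai1 was 0.374, 0.235 and 0.346 in BPVB and 0.303, 0.489 and 0.584 in sham libraries, which overlapped (log2 difference -0.50, exact permutation p = 0.3, adjusted p = 0.35). The ratio of Twist2 to Twist1 was 3.07, 2.6 and 1.38 in BPVB and 2.16, 1.27 and 2.9 in sham libraries, which overlapped over most of their range (log2 difference 0.16, exact permutation p = 0.7, adjusted p = 0.7).

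The markers were set against the junction and filament genes of other cell types in the other 4 ratios, each with groups that did not overlap and an exact permutation p of 0.1 (adjusted p = 0.14). Cdh2 to Cdh5, the endothelial cadherin, was 0.254, 0.243 and 0.245 in BPVB and 0.137, 0.156 and 0.133 in sham libraries, a log2 difference of 0.80. Cdh2 to Cdh1, the epithelial cadherin, was 19.2, 14.2 and 12.7 in BPVB and 58.2, 59.7 and 52.3 in sham libraries, a log2 difference of -1.90, or -1.13 with 0.5 added to each FPKM. Relative to Cdh2, the endothelial cadherin was thus lower and the epithelial one higher in every BPVB library, and Cdh1 itself was at 0.464 ± 0.021 FPKM in sham and 2.42 ± 0.44 FPKM in BPVB PVs. Vim to desmin (Des), the filament of muscle, was 1.16, 1.19 and 1.17 in BPVB and 1.26, 1.22 and 1.23 in sham libraries, since Des rose slightly more than Vim (log2 difference -0.08). Fap to Dpp4, its closest relative among the surface peptidases, was 2.25, 2.36 and 2.11 in BPVB and 3.3, 2.63 and 3.06 in sham libraries (log2 difference -0.42).

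**Figure D3:**
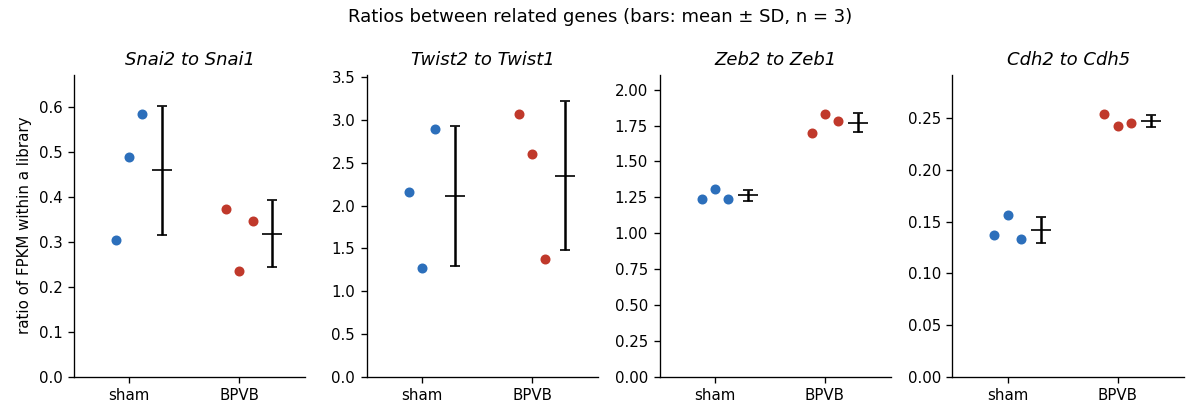
Ratio of FPKM within each library (y axis, from 0) for Snai2 to Snai1, Twist2 to Twist1, Zeb2 to Zeb1 and Cdh2 to Cdh5, in sham (blue) and BPVB (red) libraries, with the mean and SD of each group (black bars, n = 3). Zeb2 to Zeb1 and Cdh2 to Cdh5 are higher in all BPVB libraries than in any sham library, and the 2 other ratios overlap.

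Other factors of the transition were called about as often as all genes. Of 20 further transcription factors and partners, 17 were tested, of which 2 were called higher, 4 lower and 11 were not called, with a median log2 fold change of -0.01 beside 31.5% of all tested genes called and a median of 0.02. The largest called changes were those of Tcf4, the E-protein partner of Twist factors, at -0.39 (22.1, 22.2 and 21.0 FPKM in sham and 16.8, 16.6 and 16.3 FPKM in BPVB, adjusted p = 3.6e-04), Foxc1, a forkhead factor of vessel development, at -0.36, and Prrx2, given above. Yap1, a coactivator of the Hippo pathway, was higher by 0.26, and Ets1 and Ctbp1 were lower by 0.19 and 0.13, Ctbp1 losing its call with TPM and without BPVB replicate 1 or 2 or sham replicate 2 or 3 (adjusted p up to 0.07). Snai3, the remaining Snail gene, as well as Hmga2 and Gsc were under the filter on low expression. Among 10 tested dimer partners and Id inhibitors of Twist factors, 1 was called higher and 3 lower (median -0.02). Tcf15, known from somites and from heart and fat endothelium, fell from 29.3 to 11.8 FPKM (log2 fold change -1.29), Id1, an inhibitor of helix-loop-helix factors, fell from 93.6 to 62.2 FPKM (-0.59), and Id3 was called higher by 0.11 (adjusted p = 0.0076, but 0.078 with voom on recovered fragments).

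Mesenchymal and myofibroblast genes outside the 10 were mostly higher. Of 20, all of them tested, 14 were called higher, 3 lower and 3 were not called, with a median log2 fold change of 0.31. Lox, which cross-links collagen, rose from 39.3 ± 1.4 to 78.7 ± 1.7 FPKM (SD, n = 3; log2 fold change 0.99, adjusted p = 3.8e-07). Mmp14, a membrane-bound collagenase, rose from 47.9 to 89.5 FPKM, and Postn, a matrix protein of activated fibroblasts, was higher by 0.69. Cdh11, the cadherin of fibroblasts, was higher by 0.65, Pdgfrb by 0.62, Fn1 by 0.53, S100a4 by 0.48 and Col1a1 by 0.36 on the log2 scale. The contractile genes of the list went the other way, with Acta2 at -0.18 and Tagln at -0.06, as did the collagen receptor Ddr2 at -0.30. The direction of Tagln turned to 0.02 in 1 alternative, and its call was lost in 8 of 16, among them all left-out libraries but BPVB replicate 2 (adjusted p up to 0.12). Cd44, Itga5 and Itgav were not called.

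Endothelial genes were lower or not called. Of 14, all tested, 0 were called higher and 8 lower, with a median of -0.17. The largest called falls were those of Flt1 (-0.64), Emcn (-0.52) and Nos3 (-0.38), and Cdh5, which encodes VE-cadherin and is a target of Snail repression, fell from 185 ± 3.1 to 146 ± 3.1 FPKM (-0.34). Of the 8, Tek, described below, and Erg, an endothelial transcription factor, were narrow calls, the latter lost with TPM and without BPVB replicate 1 or 3 or sham replicate 1 or 2 (adjusted p up to 0.095). Of 13 epithelial genes, 8 were called higher and 1 lower when the filter on low expression was left out, with a median of 0.60. With the filter 7 of 11 were called higher, of which Cldn3 passed it only through its level in BPVB (0.0285 FPKM in sham and 0.628 FPKM in BPVB), and the desmosome gene Dsp (0.15) lost its call with median of ratios and without any 1 library but sham replicate 1 (adjusted p up to 0.083). Epcam rose from 0.434 to 4.51 FPKM (2.42), Muc1 was higher by 1.82, and Cdh1, the classical target repressed by Snail, Zeb and Twist factors, was higher by 1.59 (adjusted p = 5.3e-05), while the junction gene Tjp1 was lower by 0.15 (adjusted p = 0.015, and 0.0502 without sham replicate 3). Of 10 factors that keep the epithelial state, 7 passed the filter, Grhl1 and Esrp1 only through their level in BPVB. Klf5 rose from 0.34 to 2.3 FPKM (1.74), Ehf was higher at very low levels (0.113 to 0.437 FPKM) and Klf4 was lower by 0.19, with a median of 0.27 over all 10 without the filter. Apart from Tjp1, Dsp and Klf4, these genes were at 5.35 FPKM or less in every library, and over the alternatives the list medians were 0.60 to 2.04 for the epithelial genes and 0.22 to 1.90 for the factors, the upper values with voom on recovered fragments.

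**Figure D4:**
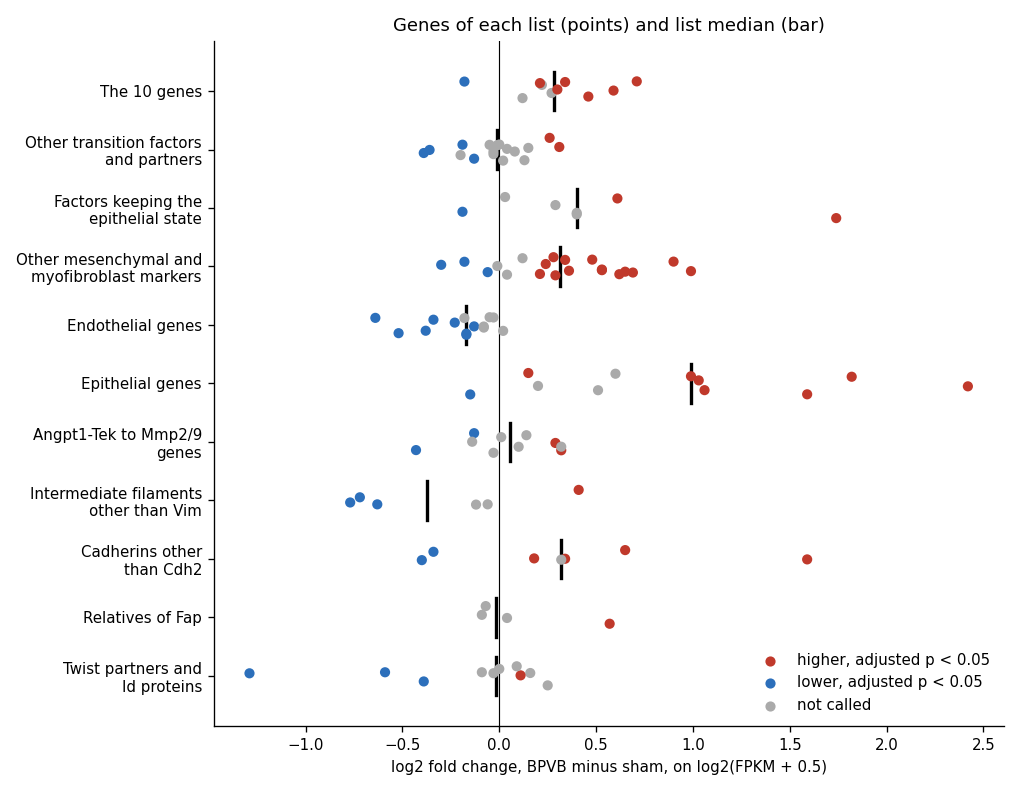
Log2 fold change, BPVB minus sham, on the log2(FPKM + 0.5) scale (x axis) of the tested genes (points) of each list (rows), with the list median (black bar); red points were called higher, blue called lower and grey not called. The 10 genes have a median of 0.29, the other transition factors -0.01, the other mesenchymal genes 0.31 and the endothelial genes -0.17, and the medians of the epithelial lists rest in part on genes that passed the filter only through their level in BPVB.

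The study's discussion names a path from angiopoietin-1 through its endothelial receptor Tek and the PI3K and AKT kinases to Slug, the Snai2 product. The path leads on to the matrix metalloproteinases Mmp2 and Mmp9. For the first step the paper relies on its single-cell data. There, an analysis of ligand and receptor pairs found more pairing of Angpt1 with Tek in stenosed veins, with macrophages and endothelium as partners. The later steps are cited from earlier studies. Of 10 genes of this path, with Snai2 counted apart, 2 were called higher, 2 lower and 6 were not called (median 0.06). Of all tested genes 31.5% were called, 17.2% higher and 14.3% lower. Angpt1 was 7.13, 6.58 and 6.43 FPKM in BPVB and 5.01, 5.19 and 5.7 FPKM in sham libraries, a log2 fold change of 0.32 (adjusted p = 0.019). Tek was 67.8, 68.0 and 64.7 FPKM in BPVB and 74.7, 74.3 and 70.0 FPKM in sham libraries, a log2 fold change of -0.13 (adjusted p = 0.037). In RNA of the whole vein, ligand and receptor thus differed in direction, and both calls were narrow. Angpt1 lost its call without BPVB replicate 1 or sham replicate 1 or 2 (adjusted p up to 0.069). Tek lost its call with TPM, with quantile normalization and without any 1 library but sham replicate 3 (adjusted p up to 0.12). Tek was also among the 8 of 14 endothelial genes called lower above. Pik3r1, the regulatory subunit of PI3K, was lower by 0.43. Mmp2 was 169, 171 and 169 FPKM in BPVB and 139, 139 and 137 FPKM in sham libraries (0.29, adjusted p = 4.1e-05). Mmp9 was near the filter, at 0.281 FPKM in BPVB and 0.123 FPKM in sham PVs, and was not called (adjusted p = 0.16). Snai2 itself was not called (adjusted p = 0.49), with a fitted log2 fold change of 0.22 that stayed above 0 in all 16 alternatives. The called genes of this list went in either direction at the RNA level. Activity of the path was not tested, and neither was pairing of Angpt1 with Tek across cell types, which whole-vein RNA does not show.

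The relatives of the markers included genes of either direction. Among 6 intermediate filament genes other than Vim, Des was higher (from 414 to 552 FPKM, log2 fold change 0.41) while Ina (-0.77), Prph (-0.72) and Nes (-0.63), filaments of neurons and progenitor cells, were lower, with a list median of -0.38. Of 7 tested cadherins other than Cdh2, 4 were called higher and 2 lower (median 0.32), with Cdh1 at 1.59, Cdh11 at 0.65 and Cdh3 at -0.40 (adjusted p = 0.014, and 0.0542 without sham replicate 1) as the largest called changes. Of the 4, Cdh6 (0.34, adjusted p = 0.039) lost its call in 9 of the 16 alternatives, including every left-out library but sham replicate 2 (adjusted p up to 0.12). Among 4 tested peptidases related to Fap, Dpp4 was called higher (from 3.49 to 5.42 FPKM, 0.57, adjusted p = 0.0027) and the 3 others were not called (median -0.01). The rise of Fap was smaller than that of Dpp4 in these libraries, as the ratio above shows.

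In the deposited annotation the factors belong to 3 families, which were counted with these factors included and are to be read beside the 17.2% of all tested genes called higher and 14.3% lower. Of 296 tested zinc-finger genes of the C2H2 type, the family of Snai1, Snai2, Zeb1 and Zeb2, 18 were called higher and 16 lower (median 0.03). Of 59 helix-loop-helix genes, 14 were higher and 10 lower (median 0.05), and of 68 homeobox genes, 15 were higher and 8 lower (median 0.14). Among 39 other tested genes that the deposited annotation assigns to epithelial to mesenchymal transition, 9 were called higher and 9 lower, with a median of 0.04. Among 40 other genes assigned to its positive regulation 13 were higher and 4 lower (median 0.11), and among 26 assigned to its negative regulation 7 were higher and 6 lower (median 0.08).

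Markers of several cell types of the vein, and of the lung epithelium next to it, differed between the groups. All 8 macrophage markers were called higher, of which C1qb lost its call without BPVB replicate 2 or 3 or sham replicate 1 or 2 (adjusted p up to 0.056), and their summed level was 688 to 708 FPKM in BPVB and 230 to 241 FPKM in sham libraries. Lyz2, the lysozyme gene, made up most of this, at 592 FPKM in BPVB and 163 FPKM in sham, and the other 7 markers summed to 104 to 113 FPKM and 69.5 to 74.3 FPKM. Of 8 alveolar and airway epithelial markers, 7 were called higher and Hopx lower, with sums of 606 to 654 FPKM in BPVB and 127 to 132 FPKM in sham. The surfactant gene Sftpc accounted for 390 and 36.6 FPKM of these, and the other 7 markers summed to 240 to 245 FPKM and 90.5 to 94.1 FPKM. Of these 7, Hopx held most of the sham sum, at 70.9 FPKM in sham and 59.3 FPKM in BPVB. Each of the others was 5.82-fold to 10.6-fold higher in BPVB. Of 8 fibroblast markers, 4 were called higher and 2 lower, with sums of 4060 to 4065 FPKM in BPVB and 3574 to 3596 FPKM in sham. The fibroblast sum was higher through Col1a1 (1230 FPKM in BPVB and 961 FPKM in sham) and Col1a2 (1119 and 832 FPKM), while the other 6 markers summed to 1690 to 1736 FPKM in BPVB and 1777 to 1810 FPKM in sham. The sum of 8 proliferation genes was higher too, at 41.0 to 41.8 FPKM against 15.3 to 17.7 FPKM with all 8 called higher.

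Other markers were lower. Of 8 atrial cardiomyocyte markers, which define the myocardial sleeve of the PV, 7 were called lower and Nppa higher, with sums of 16394 to 16837 FPKM in BPVB and 22267 to 22685 FPKM in sham. With quantile normalization the most abundant of them, Myl7, was at -0.14 instead of -0.59 and was not called (adjusted p = 0.31). Sln (-0.08) lost its call with TPM and without BPVB replicate 2 or sham replicate 2 or 3 (adjusted p up to 0.091). Of 8 smooth muscle markers, 5 were called lower and 1 higher, with sums of 4125 to 4173 FPKM against 4616 to 4690 FPKM, and of these Cnn1 was not called with quantile normalization (adjusted p = 0.22) and Tagln as described above. Of 8 endothelial markers, 4 were called lower and 0 higher, with sums of 1072 to 1082 FPKM against 1209 to 1218 FPKM, and with voom 7 were lower. Of 8 Schwann cell and neuron markers, 6 were called lower and S100b higher (0.78, adjusted p = 0.0053), with sums of 50.5 to 52.7 FPKM against 119 to 125 FPKM. Of the 6, Elavl4 (adjusted p = 0.041), which passed the filter only through its level in sham, lost its call with the replicate block and without any 1 library but sham replicate 1 (adjusted p up to 0.13), and Sox10 lost it without sham replicate 1 (adjusted p = 0.0547). Of 5 tested mesothelial markers, Upk3b, Msln and Upk1b were called lower and Krt19, a keratin shared with other epithelia, higher (median -0.37 over all 8 without the filter). Msln lost its call without BPVB replicate 2 or 3 (adjusted p up to 0.074) and Upk1b with voom (adjusted p = 0.11) and without BPVB replicate 1 or 2 or sham replicate 1 (adjusted p up to 0.073). The sums of the 8 mesothelial markers overlapped (5.93 to 7.73 FPKM in BPVB and 6.37 to 8.37 FPKM in sham), and without Krt19 the list summed to 2.28 to 2.4 FPKM in BPVB and 4.18 to 5.71 FPKM in sham. Markers of muscle, endothelium and fibroblasts were all present in every library, as the labelled tissue would have them, and no marker was at 0 in all libraries. The part of these cell types in the changes of Vim, Cdh2, Zeb1, Zeb2, Prrx1, Snai1 and Fap was not tested, and which cells carried the RNA of the 10 genes cannot be told apart in whole veins.

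Each library was left out in turn to see which calls rest on a single animal. The calls of Snai1, Zeb2, Prrx1, Cdh2 and Vim were kept in all 6 fits, at log2 fold changes of 0.58 to 0.82, 0.28 to 0.32, 0.54 to 0.62, 0.42 to 0.51 and 0.33 to 0.34, in that order. The calls of Zeb1 and Fap were lost in 2 and 5 of them. Snai2, Twist1 and Twist2 were called in none, with fitted values of 0.03 to 0.41, -0.08 to 0.29 and 0.13 to 0.42. In all, 5 of the 10 genes were called whichever animal was left out, all of them higher in BPVB. Each of these fits called 3911 to 4101 of the 15150 tested genes, and the share of all genes called in every fit was not counted.

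**Figure D5:**
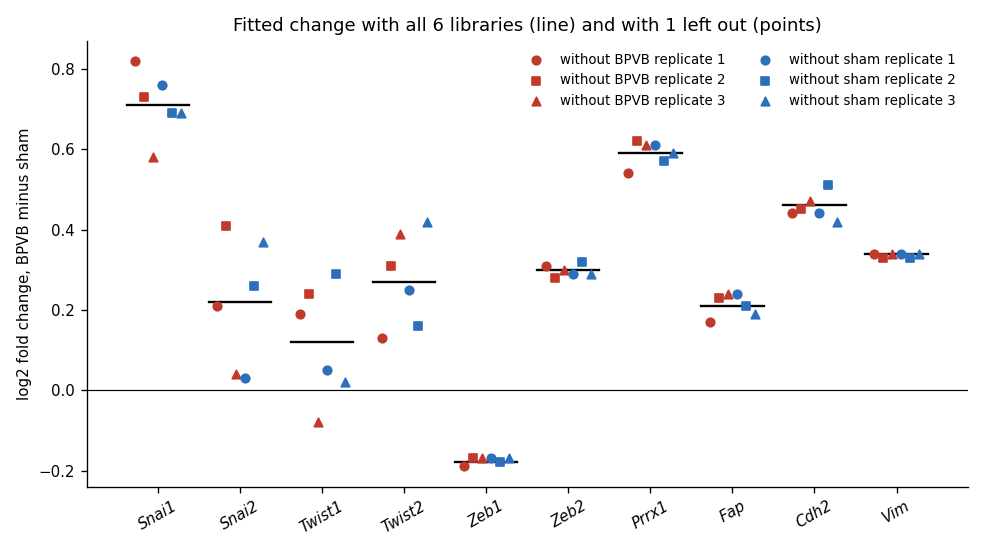
Fitted log2 fold change, BPVB minus sham (y axis), of each of the 10 genes (x axis) with 1 library left out at a time; red symbols leave out a BPVB library, blue symbols a sham library, and the black line is the value from all 6 libraries. The symbols of Vim, Zeb2, Cdh2 and Prrx1 lie close to their line, those of Snai2, Twist1 and Twist2 spread most, and those of Twist1 lie on both sides of 0.

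For Snai1, which had the largest change of the 10 genes, the genes with the most similar pattern over the 6 libraries were sought among the 12156 genes whose mean was 1 FPKM or more. Pearson r of log2(FPKM + 0.5) was 0.998 for Dok7, the highest value, and 0.997 for Nsmf. Dok7, an adaptor of the muscle receptor MuSK, was 3.16, 3.57 and 4.7 FPKM in BPVB and 2.13, 1.89 and 1.97 FPKM in sham libraries, so that, as for Snai1, BPVB replicate 3 was the highest. Its log2 fold change was 0.77 (adjusted p = 0.0031), whereas that of Nsmf (0.15, adjusted p = 0.085) did not pass. Each r is a description over 6 points in 2 groups, chosen as the highest among many genes.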

How the data were processed

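Per the labels and the paper's methods, PV RNA of 3 BPVB and 3 sham rats was sequenced. The authors used fastp for trimming, HISAT for mapping and HTSeq-count for counting, and deposited an FPKM value for every gene and rat. The submitters' processing notes also name HISAT2 2.0.5, StringTie 1.3.3b, featureCounts 1.5.0-p3 and DESeq2 1.20.0, and the genome build and strand setting are not given in the sources used here. The number of sample columns not used was 0. Replicates were separate rats.

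limma 3.58.1 in R 4.3.3 (eBayes with a mean trend) was fitted to log2(FPKM + 0.5) for genes averaging 0.1 FPKM or more, and the added 0.5 understates changes of low genes. Fragments were recovered from the whole-number steps of the FPKM (tolerance 1e-05), which were whole for 100.0% of genes, as the smallest numbers that the values allow. Poisson intervals cover counting error only. Ratios were compared by exact permutation in Python 3.11.15 (scipy 1.17.1), and the procedures were tested on simulated data. Alternatives were pseudocounts of 1 and 0.1, no filter, a mean FPKM of at least 1, 3 scalings (median of ratios, TPM, quantile), robust eBayes, a block for the replicate number, voom on recovered fragments with at least 10 in total, and leaving out each library. All 10 genes were named, with up to 3 genes of largest called change in each list, the 3 most like Snai1, of which 1 is not reported here, and other list members. The 10 genes and the lists were chosen with earlier results of these data known.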

Additional observations from a re-analysis of the deposited data

How the results depend on the processing

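The direction of all 10 genes was the same in the 16 alternatives, except that Twist1 turned to -0.08 without BPVB replicate 3 (0.29 at most over the left-out libraries). The calls of Zeb1 and Fap were narrow. Fap was not called with median of ratios (adjusted p = 0.051) or voom (adjusted p = 0.1), so that 5 of the 10 genes were higher in these fits and 6 in the other scalings. With a library left out, 5 or 6 were higher and 0 to 1 lower, beside 2163 to 2232 higher and 1748 to 1901 lower of the 15150 tested genes. The log2 difference of the Twist2 to Twist1 ratio was -0.17 to 0.50 without 1 library, and that of Cdh2 to Cdh1 was -1.13 instead of -1.90 with 0.5 added to each FPKM, since Cdh1 is low.

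With the replicate block, 6 of the 10 genes were higher and 1 lower as without it, and 4539 genes were called in place of 4775. Deviations of same-numbered libraries from their group means correlated at 0.03, 0.02 and 0.02, so the numbers were not taken to pair the animals, although each library correlated best with its own number. Voom called 5634 genes. Over the scalings, the median change of all genes was between -0.0126 and 0.0561. Of 960 values for the lists under the alternatives, 55 changed, that is, a count by more than 1.5 times or a median by at least 0.1. Snai2, Twist1 and Twist2 rested on 40 to 274 fragments per library, with differences within a group beyond counting error, and 3 animals per group limit every value.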
